A study of Mus musculus with 24 samples.

Results

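The comparison described here sets round spermatids against pachytene/diplotene spermatocytes in mice that carry no functional copy of Ago1, Ago3 or Ago4 (Ago413-/-). It uses 4 small RNA libraries of each cell type, 8 of the 24 libraries of the series, chosen by their labels alone. Of 1978 mature miRNAs in the count table, the 367 that reached 10 counts or more in 3 or more of these 8 libraries were tested. The other 16 libraries, 4 of each cell type from Ago413+/+ and from Ago413+/- males, serve only to show how the same cell type contrast looked in other genotypes. All males were C57BL/6J mice of 10 to 15 weeks. The Ago413-/- allele is one constitutive line, in which Ago1 was removed whole and Ago3 and Ago4 in part, and Ago2 was left intact in all 3 genotypes. Each preparation pooled the testes of 2 to 5 males, and the cell types were separated by sedimentation through an albumin gradient, with fractions of purity above 70% kept. The study gives a higher range of purity for round spermatid fractions than for spermatocyte fractions. The count table holds miRNAs only, so the deletion could not be checked in it. Nothing in the labels says that a round spermatid and a spermatocyte library with the same number came from the same animals, so p-values measure the spread between these pools.

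MicroRNAs are short RNAs that are cut from a hairpin precursor and loaded into Argonaute proteins. The 5p or the 3p arm of the hairpin can be loaded, and the seed, bases 2 to 8 of the loaded strand, directs it to target mRNAs. Spermatocytes carry out meiosis with their sex chromosomes transcriptionally silenced while their autosomes are transcribed. The study describes this silencing as kept in part after meiosis, the stage of the haploid round spermatids. The miR-34 and miR-449 families are known for high expression in meiotic and postmeiotic male germ cells, miR-146a-5p is known in innate immune signalling and in undifferentiated spermatogonia, and an X-linked cluster flanking Fmr1 holds many miRNAs that are abundant in testis.

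The sequences below are the mature miRNAs on which the results turn, from RefSeq on GRCm38.p6, in lower case with the seed in capitals. RefSeq gave a mature sequence for 305 of the 367 tested miRNAs and a hairpin gene for 366. The first set holds the 2 miRNAs that passed the test, miR-146a-5p and miR-195a-3p, each followed by its nearest relative, which did not. The miR-146 pair shares a seed, whereas miR-195a-3p and miR-195a-5p are opposite arms of one hairpin.
miR-146a-5p: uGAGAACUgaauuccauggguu
miR-146b-5p: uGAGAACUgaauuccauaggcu
miR-195a-3p: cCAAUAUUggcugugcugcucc
miR-195a-5p: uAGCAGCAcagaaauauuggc
The second set shows 4 members of the miR-34 and miR-449 family with one seed, and the 3p arms of miR-34b and miR-34c, which share another seed.
miR-34a-5p: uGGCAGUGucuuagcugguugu
miR-34b-5p: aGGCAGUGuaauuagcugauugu
miR-449a-5p: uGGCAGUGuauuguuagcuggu
miR-449c-5p: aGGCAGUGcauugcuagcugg
miR-34b-3p: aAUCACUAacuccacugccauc
miR-34c-3p: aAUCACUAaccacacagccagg
The third set shows let-7 members that share a seed and lay on different sides of 0, followed by the miR-29 pair and the abundant miR-99 and miR-100.
let-7a-5p: uGAGGUAGuagguuguauaguu
let-7d-5p: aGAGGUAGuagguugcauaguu
let-7g-5p: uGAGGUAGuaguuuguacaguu
let-7i-5p: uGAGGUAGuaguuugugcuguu
miR-29a-3p: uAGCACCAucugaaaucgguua
miR-29b-3p: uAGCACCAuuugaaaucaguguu
miR-99a-5p: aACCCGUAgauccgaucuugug
miR-100-5p: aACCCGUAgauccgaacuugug
The last set shows 3 of a run of closely numbered miRNAs that had lower values in round spermatids, which share no seed, and the most counted miRNA, miR-881-3p. It also holds miR-465b-3p, whose sequence is the same in miR-465a-3p and miR-465c-3p, so that reads of these 3 names cannot be told apart.
miR-7210-5p: uAACAUUGuagacaggcacaaag
miR-7217-3p: uGAGAACCcacaagcaagaaga
miR-7223-5p: uAGCUUUGcugaggugucgg
miR-881-3p: aACUGUGUcuuuucugaauaga
miR-465b-3p: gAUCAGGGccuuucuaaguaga

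The Ago413-/- round spermatid libraries held more miRNA counts than the spermatocyte libraries. Totals were 652345, 394977, 948061 and 417792 counts in round spermatid replicates 1 to 4 and 369491, 182904, 286991 and 238590 counts in spermatocyte replicates 1 to 4. The groups did not overlap, and the exact two-sided permutation test gave p = 0.0286, the smallest value that 4 against 4 libraries allow. A library total depends on how the library was pooled and sequenced as well as on the RNA, so it says nothing of miRNA per cell. Values below are levels in TMM-normalized CPM, counts scaled to a common library size, unless another scale is named. An absent miRNA is compatible with 3 counts, which come to 19.3 CPM in the shallowest library and 4.02 CPM in the deepest, a limit for counting error only. Of the 367 miRNAs, 101 reached 10 counts in fewer than 3 spermatocyte libraries and 17 in fewer than 3 round spermatid libraries. These passed the filter mainly through 1 cell type, so counts over the miRNAs tested are no evidence of a shift between the cell types.

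Spermatocyte replicate 2 stood apart from the other libraries. It was the shallowest, and its log2 levels deviated from the mean of the other 3 replicates with an SD of 1.34, against 0.434 to 0.766 for 22 of the other 23 libraries and 1.02 for Ago413+/- spermatocyte replicate 4. Across the 305 miRNAs with a sequence, this deviation of spermatocyte replicate 2 went up by 0.42 log2 units for every 10 percentage points of GC (r = 0.294), whereas in the other 7 Ago413-/- libraries the slope lay between -0.171 and 0.0584. The log2 fold change between the cell types followed GC with r = -0.302 over all 8 libraries and with r = -0.169 over the 303 miRNAs left without that library. The part of GC in the results was not tested. Of 94 named miRNAs, 38 had a log2 fold change that moved by more than 1.5 times or turned in direction without that library. The 15 of these at or beyond 0.5 in size are given below with both values, and the rest lay closer to 0. Calls are those of edgeR on all 8 libraries unless another fit is named.

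In round spermatids of Ago413-/- males, 1 miRNA rose and 1 fell relative to spermatocytes. miR-146a-5p rose by 2.78 and miR-195a-3p fell by 2.23 on the log2 scale, and the ratio of the group means was 6.93 for the first and 0.211 for the second. A miRNA was called changed with a Benjamini-Hochberg adjusted p under 0.05 in edgeR's quasi-likelihood test and a log2 fold change of at least 1 in size, a rule that called 0.545% of the miRNAs tested, 0.272% as higher and 0.272% as lower. At an unadjusted p under 0.05 there were 92 miRNAs, or 25.1%, of which 44 had higher and 48 lower values in round spermatids. Groups without overlap were found for 52 miRNAs (14.2%), with round spermatids above in 31 (8.45%) and below in 21 (5.72%). Over all 367, the median log2 fold change was 0.10, and 210 (57.2%) lay above 0.

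**Figure D1:**
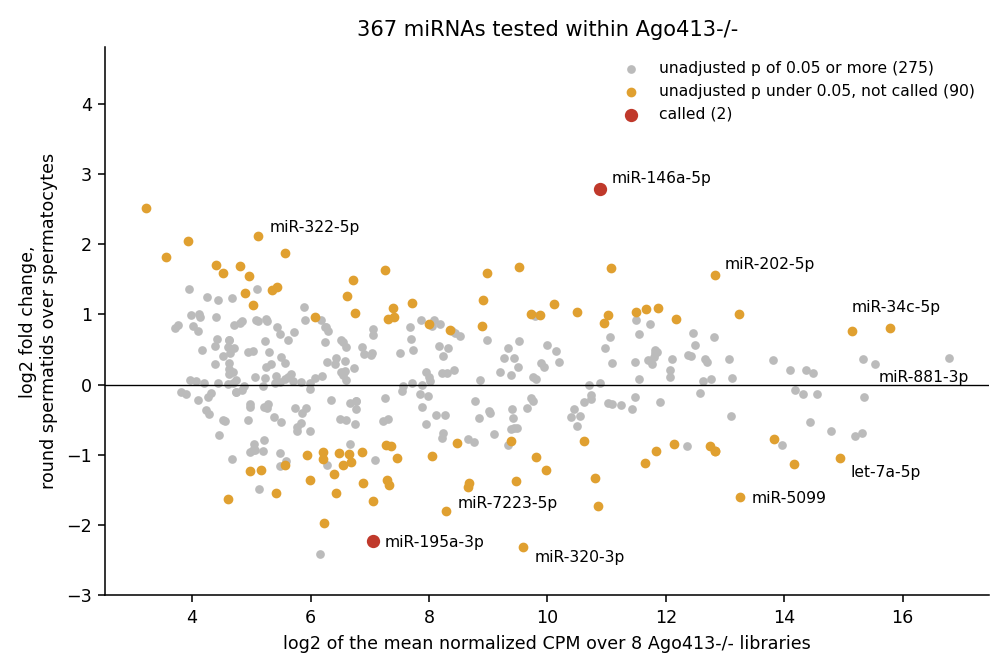
The log2 fold change of round spermatids over spermatocytes (vertical axis) against the log2 of the mean normalized CPM over the 8 Ago413-/- libraries (horizontal axis), 1 point for each of 367 miRNAs. The 2 called miRNAs stand at 2.78 and -2.23, and 90 others had an unadjusted p under 0.05 without passing the adjusted test.

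miR-146a-5p, encoded by a hairpin at chr11:43374397-43374461 (GRCm38.p6, minus strand) outside any other gene of GENCODE M21, had levels of 3209, 2345, 4174 and 3483 CPM in round spermatid replicates 1 to 4. The spermatocyte replicates 1 to 4 stood at 671, 77.4, 539 and 617 CPM. Every round spermatid library lay above every spermatocyte library, and the lowest round spermatid value was above 3 times the highest spermatocyte value. Its log2 fold change was 2.78 with an SE of 0.53 (edgeR adjusted p = 0.0115), and 2.44 without spermatocyte replicate 2, where it held 12 reads. miR-146b-5p, which has the same seed and differs near its 3′ end, ranged from 837 to 945 CPM in round spermatids and from 664 to 974 CPM in spermatocytes. Its groups overlapped, with a log2 fold change of 0.10 ± 0.34 (SE), so the values of the seed family differed by member. Summed over the seed GAGAACU, the pair gave a log2 fold change of 1.63 ± 0.32 (SE, edgeR adjusted p = 0.0165 over 305 seed families).

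miR-195a-3p showed the opposite direction. It comes from a hairpin at chr11:70235042-70235135 (GRCm38.p6, plus strand), also outside any other gene of that annotation. The level was 34.2, 52.7, 60.4 and 39.1 CPM in round spermatids and 118, 193, 253 and 317 CPM in spermatocytes, replicates 1 to 4 each. All round spermatid libraries lay below all spermatocyte libraries. The log2 fold change was -2.23 with an SE of 0.42 (edgeR adjusted p = 0.0115), and -2.28 without spermatocyte replicate 2. The opposite arm, miR-195a-5p, a member of the miR-15/16 seed family, gave 245, 279, 243 and 290 CPM in round spermatids and 278, 110, 253 and 283 CPM in spermatocytes. These groups overlapped, with a log2 fold change of 0.18 ± 0.37 (SE). As a share of both arms, the 3p arm made up 12.2%, 15.9%, 19.9% and 11.9% in round spermatids and 29.8% to 63.8% in spermatocytes, without overlap. The hairpin was too thinly counted in spermatocyte replicate 2 to enter the arm test, so these shares are a description.

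The 2 calls were sensitive to the libraries used. Leaving out any 1 round spermatid library, or spermatocyte replicate 3 or 4, left no miRNA past the adjusted threshold, with 45 to 84 miRNAs at an unadjusted p under 0.05. The adjusted p over all alternatives ran from 1.18e-07 to 0.103 for miR-146a-5p and from 2.85e-06 to 0.0802 for miR-195a-3p, and neither changed direction.

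Further miRNAs passed under other fits, and they are named here after their values were seen. Without spermatocyte replicate 2 the edgeR test called 12 miRNAs, 7 higher and 5 lower, and DESeq2 on all 8 libraries called 14 (3.81%), 5 higher and 9 lower. The calls shared by both were 8, which are 8 of 12 and 8 of 14. Beside miR-146a-5p and miR-195a-3p they were miR-203-3p, miR-322-5p and miR-365-3p with higher values in round spermatids, and miR-5099, miR-7210-5p and miR-7223-5p with lower values. miR-203-3p, best known in skin, gave 4750, 3982, 7644 and 4014 CPM in round spermatids against 2695, 1999, 2712 and 2156 CPM in spermatocytes. miR-322-5p, an X-linked member of the miR-15/16 seed family, gave 71.3, 37.7, 60.4 and 59.6 CPM against 11.8, 0, 19.5 and 17.4 CPM. Its spermatocyte libraries held 5, 0, 6 and 4 counts, so it passed the filter through round spermatids alone, where it was high, and its calls are no support for a difference. miR-365-3p gave 174, 140.6, 180 and 134 CPM against 80.1, 38.7, 68.2 and 30.4 CPM. Its spermatocyte libraries held 34, 6, 21 and 7 counts, so it passed the filter mainly through round spermatids. Its calls are likewise no support for a difference. For these 3 miRNAs the round spermatid libraries all lay above the spermatocyte libraries. miR-5099 gave 2058, 6677, 5394 and 5366 CPM in round spermatids against 9407, 22476, 9525 and 17552 CPM in spermatocytes, without overlap. With all 8 libraries the edgeR log2 fold changes of the 5 other than miR-322-5p ran from -1.81 (miR-7223-5p, adjusted p = 0.113) to 1.48 (miR-365-3p, adjusted p = 0.13).

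**Figure D2:**
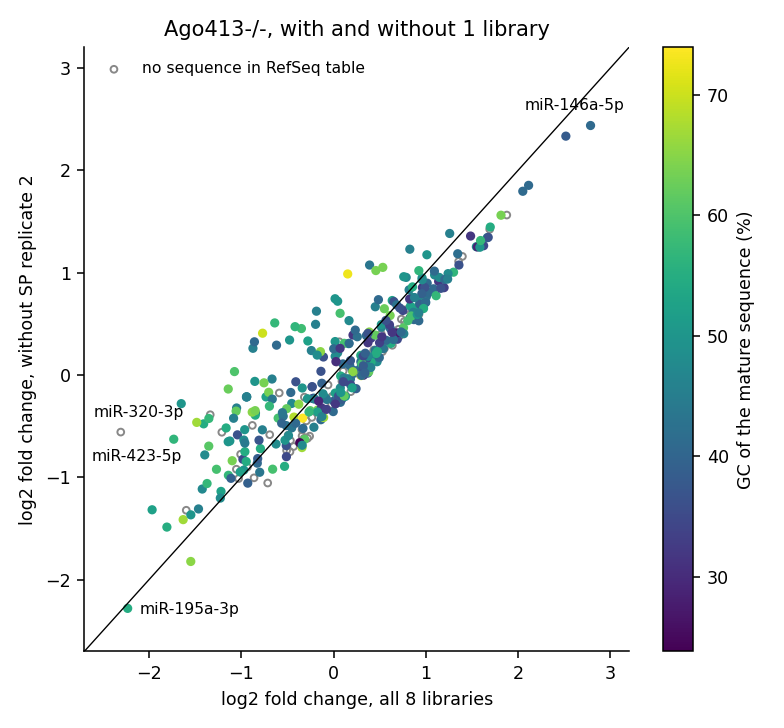
The log2 fold change of round spermatids over spermatocytes with all 8 Ago413-/- libraries (horizontal axis) and without spermatocyte (SP) replicate 2 (vertical axis), 1 point per miRNA, coloured by the GC percent of its mature sequence. miR-146a-5p and miR-195a-3p lie near the line of equality, whereas miR-320-3p moved from -2.31 to -0.56 and miR-423-5p from -1.73 to -0.63.

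The values that rested most on that library were lower ones. miR-320-3p gave 223 to 306 CPM in round spermatids and 344, 4004, 458 and 339 CPM in spermatocytes, so that its log2 fold change of -2.31 became -0.56 without replicate 2. miR-423-5p gave 736 to 974 CPM in round spermatids and 1128, 7395, 1247 and 1569 CPM in spermatocytes, and went from -1.73 to -0.63. In both, the other spermatocyte libraries were still above all round spermatid libraries.

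None of the 10 most counted miRNAs was called. miR-881-3p, an X-linked miRNA of the cluster near Fmr1, gave 111003, 111155, 215743 and 70052 CPM in round spermatids and 83609, 86551, 93186 and 129181 CPM in spermatocytes. The groups overlapped, with a log2 fold change of 0.37 ± 0.33 (SE). The 10 miRNAs with the highest mean level together made up 42.5% to 51.5% of counts in round spermatids and 44.2% to 48.6% in spermatocytes. At an unadjusted p under 0.05 there were 3 of the 10, against 25.1% of all miRNAs: miR-34c-5p at 0.81, miR-99a-5p at 0.76 and let-7a-5p at -1.04. For the other 7, the log2 fold changes lay between -0.73 (miR-470-5p) and 0.37, with miR-148a-3p at 0.30, miR-191-5p at -0.17, let-7g-5p at 0.36, miR-92a-3p at -0.70 and miR-871-3p at -0.66. Without spermatocyte replicate 2, miR-470-5p stood at -0.21, miR-92a-3p at -0.31 and miR-871-3p at -0.24.

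The miR-34 and miR-449 family, whose loss together is known to impair spermatogenesis, had 8 tested arms, of which 7 lay above 0 with a median log2 fold change of 0.64, against 0.10 over all miRNAs. None was called by edgeR or DESeq2 on the 8 libraries. At an unadjusted p under 0.05 there were 4 higher and 1 lower, against 12% and 13.1% of all miRNAs. Of the 8 arms, 2, miR-449c-5p and miR-449a-3p, reached 10 counts in fewer than 3 spermatocyte libraries. miR-449c-5p, among the 4 higher, held 9, 0, 2 and 3 counts in spermatocytes. It passed the filter through round spermatids alone, so its higher value is no support for a difference. miR-34a-5p gave 874, 663, 849 and 668 CPM in round spermatids and 523, 45.1, 250 and 182.6 CPM in spermatocytes. The groups did not overlap, and its log2 fold change was 1.59 ± 0.52 (SE, edgeR adjusted p = 0.138). The most counted member, miR-34c-5p, gave 57612, 105721, 71197 and 54709 CPM in round spermatids. In spermatocytes it gave 42628, 15590, 45282 and 61352 CPM, so that replicate 4 reached into the range of round spermatids. miR-449a-5p overlapped between the cell types as well, at 4903 to 6886 CPM against 1103 to 7432 CPM, and the sparse miR-449c-5p had a log2 fold change of 1.59 ± 0.68 (SE). Without spermatocyte replicate 2 the median of the family was 0.37, with 6 of 8 above 0, and miR-34c-5p went from 0.81 to 0.54.

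Both arms of miR-34b were abundant, and their values went in opposite directions. miR-34b-5p gave 5677, 8105, 4946 and 5531 CPM in round spermatids against 3364, 1444, 4287 and 3595 CPM in spermatocytes, and miR-34b-3p gave 7441, 13968, 12612 and 8747 CPM against 15176, 26602, 14792 and 16460 CPM. The 5p arm was higher and the 3p arm lower in every round spermatid library than in any spermatocyte library, although neither passed the adjusted test (log2 fold changes of 0.93 and -0.77, edgeR adjusted p = 0.168 and 0.178). The 5p arm thus made up 43.3%, 36.7%, 28.2% and 38.7% of the hairpin's counts in round spermatids and 18.1%, 5.15%, 22.5% and 17.9% in spermatocytes. On the scale of the log2 ratio of 5p to 3p, the difference was 1.79 ± 0.57 (SE, limma adjusted p = 0.213 over 86 hairpins). Mir34b and Mir34c are adjacent, at chr9:51103562-51103645 and chr9:51103034-51103110 (GRCm38.p6, minus strand), within the span of Btg4 on the opposite strand, in its introns. miR-34c-3p, with the seed of miR-34b-3p, had overlapping groups and a log2 fold change of 0.08 ± 0.39 (SE).

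Over the 86 hairpins with at least 50 counts on both arms together in every library, none changed its arm ratio (limma, adjusted p under 0.05), and 18, or 20.9%, had an unadjusted p under 0.05. The lowest adjusted p was 0.148, for miR-99a, whose 3p arm held 1 count in all 8 libraries together. For miR-202, the 3p arm made up 3.55% to 4.83% of counts in round spermatids and 9.07%, 64.0%, 8.29% and 12.9% in spermatocytes.

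**Figure D3:**
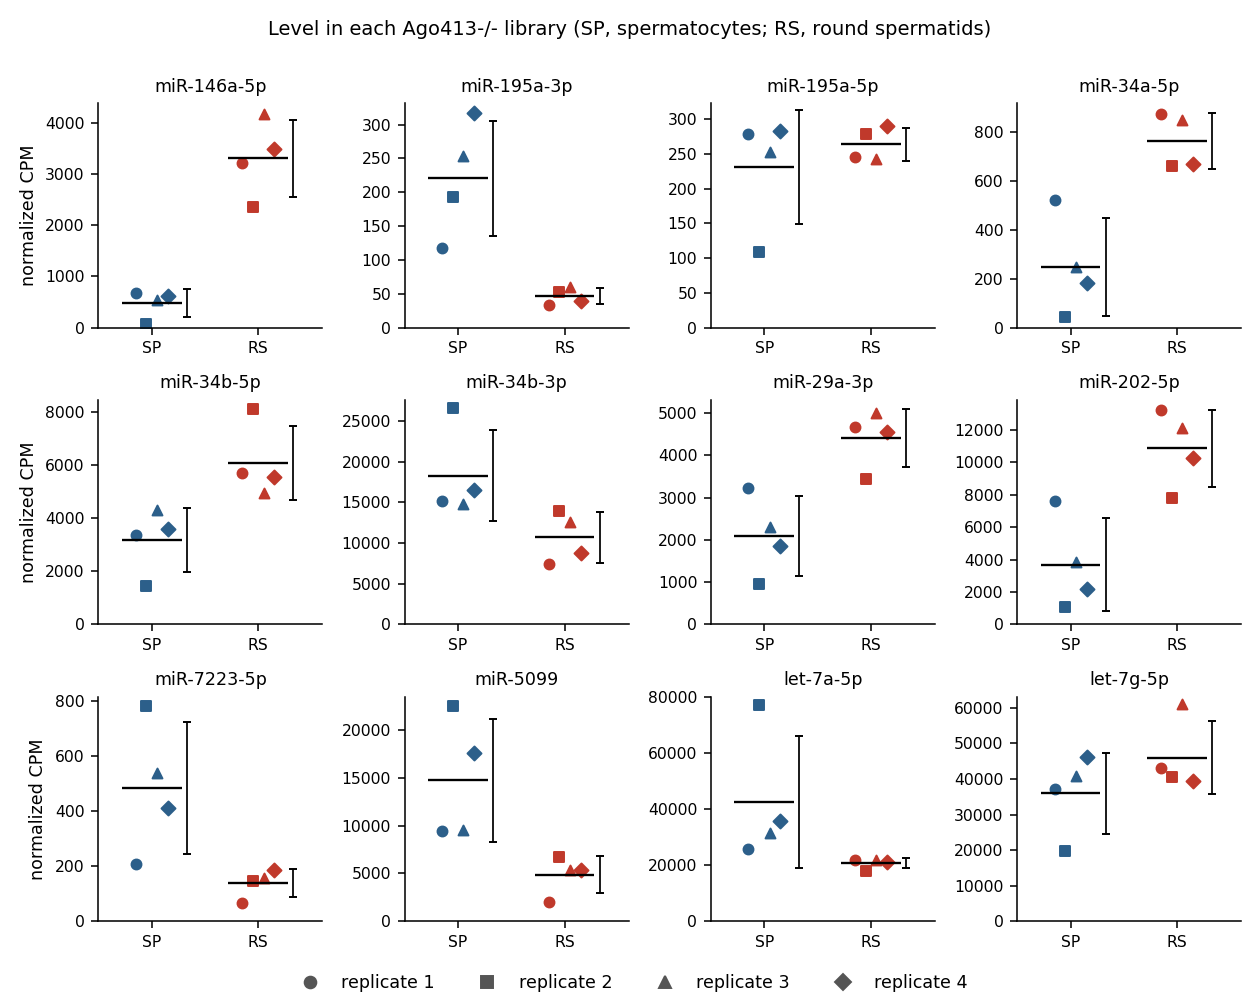
Normalized CPM of 12 miRNAs in each Ago413-/- library, spermatocytes (SP, blue) and round spermatids (RS, red), with a marker shape for each replicate, the mean as a line and the SD as a bar (n = 4). miR-146a-5p and miR-195a-3p separate in opposite directions, both arms of miR-34b do likewise, and spermatocyte replicate 2 (squares) is the lowest or highest spermatocyte library in 11 of the 12 panels.

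The let-7 family, repressors of growth and stem cell genes, had values on both sides of 0. Of 13 tested arms, 5 lay above and 8 below 0, with a median of -0.23, and none was called. Of the arms below 0, let-7a-1-3p and let-7c-2-3p held identical counts in every library, so they count as 1, and the median is their value. The seed GAGGUAG was shared by 9 of the 13, of which 4 lay above 0. let-7a-5p gave 21698, 17931, 21736 and 21172 CPM in round spermatids against 25628, 77144, 31406 and 35742 CPM in spermatocytes. The groups did not overlap, at a log2 fold change of -1.04 ± 0.35 (SE, edgeR adjusted p = 0.138), and -0.59 without spermatocyte replicate 2. let-7d-5p had a log2 fold change of -0.85, or -0.37 without that library, and also no overlap, whereas let-7g-5p, let-7i-5p and let-7f-5p stood at 0.36, 0.36 and 0.21 with overlapping groups. let-7c-5p gave 55229 CPM in spermatocyte replicate 2 and 7654 to 10862 CPM in the others, and its log2 fold change went from -0.86 to 0.32 without that library. The median of the family likewise went from -0.23 to 0.26, so the direction of the family rested on 1 library. Members of this family differ by few bases, and reads of one may have been counted for another.

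Both tested members of the miR-29 family, known as repressors of collagen genes, had higher values in round spermatids. miR-29a-3p gave 4673, 3435, 5014 and 4563 CPM against 3227, 948, 2302 and 1860 CPM, and miR-29b-3p gave 257, 183.3, 263 and 236 CPM against 127, 0, 101 and 60.9 CPM. Neither overlapped, and the log2 fold changes were 1.08 ± 0.39 and 1.63 ± 0.56 (SE), with edgeR adjusted p = 0.159 and 0.139. Without spermatocyte replicate 2 they were 0.84 and 1.26, of which the second passed the edgeR test (adjusted p = 0.0441).

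In the family of miR-10, miR-99, miR-100 and miR-125, 10 of 11 tested arms lay above 0, with a median of 0.46 and 1.02 without spermatocyte replicate 2. No member was called on all 8 libraries, and 4 had an unadjusted p under 0.05, all higher, against 12% higher over all miRNAs. Among these 4 were miR-10b-3p and miR-125b-2-3p, with 5, 0, 1 and 1 and 12, 0, 6 and 2 counts in spermatocytes. These 2 arms passed the filter mainly through round spermatids, where they were high, so their higher values are no support for a difference. miR-100-5p gave 12555, 9238, 19672 and 9836 CPM in round spermatids against 6304, 8433, 6287 and 4442 CPM in spermatocytes. Its groups did not overlap, and the log2 fold change was 1.01 ± 0.35 (SE, edgeR adjusted p = 0.139). It was 1.17 and was called without spermatocyte replicate 2 (edgeR adjusted p = 0.0441). The value of miR-99a-5p, with the same seed, was 0.76 ± 0.35, and here the groups overlapped. The miR-181 family, active in lymphocyte development, had 4 tested arms, all above 0 with a median of 0.75. Of the 4, miR-181a-1-3p held 7, 2, 1 and 6 counts in spermatocytes and passed the filter through round spermatids alone. Its higher value is no support for a difference. The most counted member, miR-181a-5p, had a log2 fold change of 1.14 ± 0.40 (SE). Among the miR-15, miR-16, miR-195, miR-322 and miR-497 arms, 9 of 13 lay above 0 and the median was 0.52. Of these 13, 5 reached 10 counts in fewer than 3 spermatocyte libraries, and all 5 lay above 0. The median was the value of 1 of them, miR-497a-5p, with 3, 3, 13 and 4 counts in spermatocytes. These 5 passed the filter mainly through round spermatids, so this direction is no support for a difference. In this group edgeR called miR-195a-3p alone, DESeq2 also called the sparse miR-322-5p, and the abundant miR-16-5p stood at 0.41 ± 0.39 (SE).

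**Figure D4:**
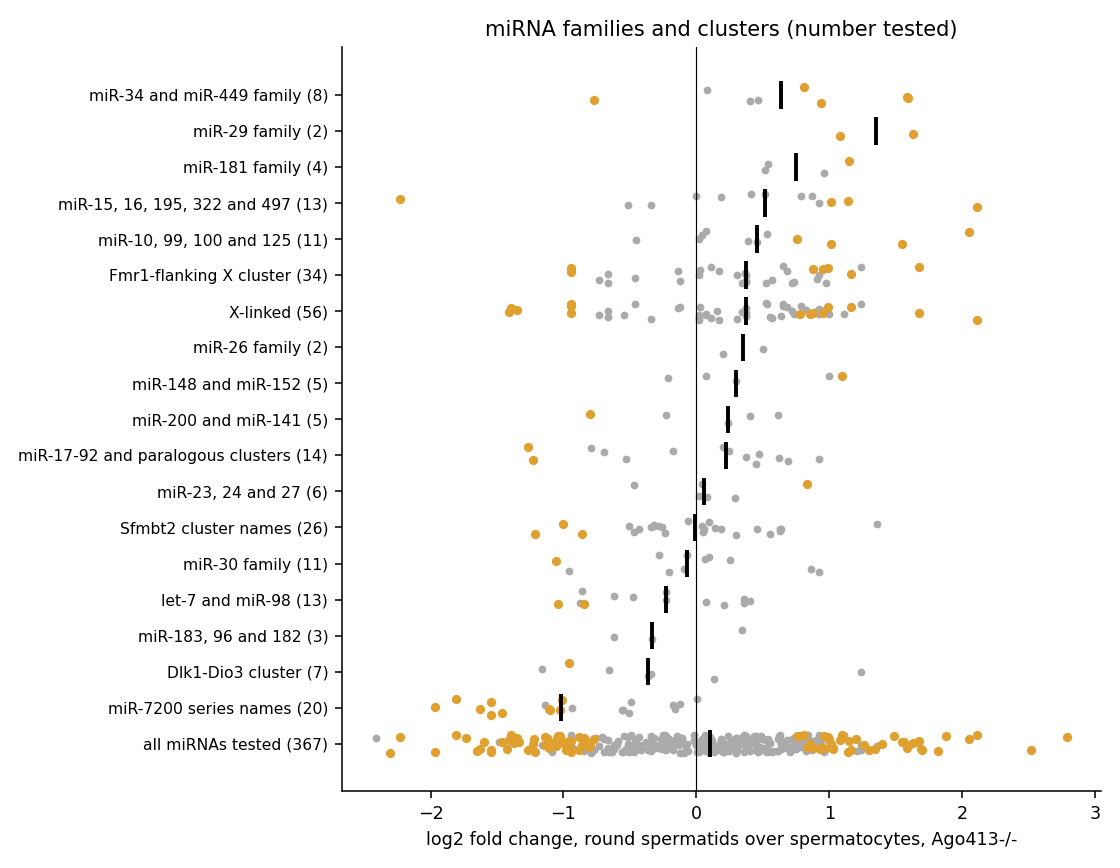
Log2 fold change of round spermatids over spermatocytes within Ago413-/- for the tested members of 18 miRNA groups and for all 367 miRNAs, 1 point per miRNA, with the median as a black bar and points with an unadjusted p under 0.05 in orange. Group medians run from -1.02 for the run of miR-7210 to miR-7242 to 1.35 for the miR-29 pair, against 0.10 over all.

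X-linked miRNAs held a like share of counts in both cell types. Their part of the counts was 30.8%, 27.5%, 35.6% and 27.4% in round spermatid replicates 1 to 4 and 28.4%, 34.3%, 28.8% and 31.1% in spermatocyte replicates 1 to 4, with overlap. Almost all of it came from the cluster near Fmr1, with 27.04% to 35.3% and 28.1% to 33.96% of counts. Of 56 tested X-linked arms, 42 lay above 0 with a median of 0.37, against 57.2% above 0 over all miRNAs. Of the 56 arms, 14 reached 10 counts in fewer than 3 spermatocyte libraries, against 101 of all 367. The count above 0 is therefore no support for a difference. At an unadjusted p under 0.05, 8 had higher and 6 lower values, against 12% and 13.1% over all. The edgeR test on all 8 libraries called none, and DESeq2 called miR-322-5p. In the cluster itself, 34 of 40 named arms were tested, 5 of them with 10 counts in fewer than 3 spermatocyte libraries. Of the 34 arms in the cluster, 25 lay above 0, with a median of 0.37. Its 5 arms with higher values at an unadjusted p under 0.05 were miR-201-5p, miR-471-5p, miR-741-5p, miR-880-3p and miR-883b-3p. miR-471-5p gave 1565, 977, 1035 and 1396 CPM in round spermatids and 909, 445, 526 and 622 CPM in spermatocytes, without overlap. miR-201-5p had the largest log2 fold change of the 5, at 1.68 ± 0.52 (SE), but spermatocyte replicate 1 at 648 CPM lay above round spermatid replicate 2 at 595 CPM. With spermatocyte replicate 2 left out it stood at 1.34 and was called (edgeR adjusted p = 0.0441). The 3 arms with lower values were the identical miR-465a-3p, miR-465b-3p and miR-465c-3p, which count as 1 sequence. miR-465b-3p gave 3992 to 5643 CPM in round spermatids and 5783, 20980, 5339 and 6198 CPM in spermatocytes, and its log2 fold change of -0.94 became -0.21 without spermatocyte replicate 2, with miR-465a-3p going from -0.94 to -0.21 and miR-465c-3p from -0.94 to -0.22. The opposite arms, miR-465b-5p and miR-465c-5p, stood at -0.14 and 0.17.

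A run of closely numbered miRNAs, from miR-7210 to miR-7242 with gaps, lay almost wholly below 0. This group was picked after its values were seen, so it has no test and its direction is a description. Of 68 arms in the count table with names of the miR-7200 series, 20 were tested. These 20 came from 15 hairpins on 9 chromosomes, and the 18 with a sequence had 18 different seeds. The log2 fold change was below 0 for 19 of 20, with a median of -1.02, and 10 had an unadjusted p under 0.05, all lower, against 13.1% lower over all miRNAs. In round spermatids, miR-7221-3p held 7, 2, 15 and 4 counts and miR-7222-3p held 7, 9, 27 and 9 counts. These 2 arms passed the filter mainly through spermatocytes, where they were high, so their lower values are no support for a difference. The summed level was 2883, 4490, 4726 and 4408 CPM in round spermatids and 5303, 10484, 7606 and 11179 CPM in spermatocytes, without overlap. miR-7223-5p, in an intron of Prkca at chr11:107996848-107996916 (GRCm38.p6, plus strand, antisense to the gene), gave 65.6, 146, 156 and 185 CPM against 207, 780, 539 and 413 CPM. miR-7210-5p, the most counted, gave 1619, 2142, 2398 and 1959 CPM against 3006, 5300, 3478 and 5768 CPM. Neither overlapped, at log2 fold changes of -1.81 ± 0.46 and -1.11 ± 0.36 (SE, edgeR adjusted p = 0.113 and 0.138). miR-7217-3p and miR-7218-5p lie within exons of the lincRNA Gm49794 on chromosome 17 and stood at -1.46 and -1.97, with 1 library overlapping in each. DESeq2 called 4 of the 20, all lower, against 9 lower among all 367. Without spermatocyte replicate 2 the median was -0.87, with 18 of 20 below 0.

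Other groups stayed close to the median of all miRNAs or went below it. The cluster names of Sfmbt2, an imprinted placental gene, had 26 tested arms split 13 and 13, a median of -0.01, and miR-669c-5p at -1.21, or -0.56 without spermatocyte replicate 2, as the most counted arm. The miR-17-92 group also took in the related cluster of miR-25, whose hairpin lies in Mcm7. It had 14 arms and a median of 0.22, which turned to -0.13 with 8 of 14 below 0 without that library. In it the minor arms miR-25-5p and miR-92a-1-5p stood at -1.27 and -1.23 and the major arms miR-25-3p and miR-20a-5p at -0.53 and 0.37. The miR-30 family had 11 arms and a median of -0.07, with miR-30c-5p at -0.07 and miR-30a-5p at 0.86. In the imprinted Dlk1-Dio3 cluster, 7 of 115 arms were tested, with a median of -0.37 and miR-541-5p at -0.96. The medians were 0.35 for 2 arms of miR-26 (miR-26a-5p at 0.20, miR-26b-5p at 0.50), 0.06 for 6 arms of miR-23, miR-24 and miR-27 (miR-27b-3p at 0.29, miR-27a-3p at 0.83), 0.30 for 5 arms of miR-148 and miR-152 (miR-152-3p at 1.09) and 0.23 for 5 arms of miR-200 and miR-141. The sensory miR-183, miR-96 and miR-182 had a median of -0.33 over 3 arms, with miR-183-5p at -0.33 and miR-182-5p at -0.62. Of 8 arms described before in spermatocytes or spermatids, 5 lay above 0 with a median of 0.24, and miR-184-3p stood at -1.12 ± 0.39 (SE), with 8738 to 15683 CPM in round spermatids and 13280 to 46886 CPM in spermatocytes. The highest of these was spermatocyte replicate 2, without which miR-184-3p stood at -0.65. Without that library the medians were -0.23 for the Sfmbt2 names, -0.22 for miR-30, -0.66 for Dlk1-Dio3, 0.18 for miR-26, 0.13 for miR-148 and miR-152, -0.52 for miR-183, miR-96 and miR-182, and 0.03 for the 8 arms described before. The edgeR test on all 8 libraries called no member of these groups, whereas DESeq2 called miR-25-5p and miR-152-3p, and edgeR on all 24 libraries called both of these and miR-30b-3p.

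Markers of other cells that a testis fraction can hold were detected in both cell types. In bulk fractions, fewer cells of a type and less RNA per cell cannot be told apart. The endothelial pair, miR-126a-3p and miR-126a-5p, summed to 1861 to 5021 CPM in round spermatids and 251 to 2358 CPM in spermatocytes, and miR-126a-3p had a log2 fold change of 1.66 ± 0.55 (SE, edgeR adjusted p = 0.138) with overlap. miR-202-5p, a gonadal miRNA of Sertoli cells, gave 13208, 7799, 12114 and 10237 CPM in round spermatids against 7633, 1070, 3842 and 2169 CPM in spermatocytes, without overlap and with a log2 fold change of 1.56 ± 0.48 (SE, edgeR adjusted p = 0.138). Its 3p arm overlapped, at -0.85 ± 0.51 (SE), and at -0.06 without spermatocyte replicate 2. Of 5 mesenchymal arms, 4 lay above 0, with sums of 6172 to 7513 CPM against 2366 to 5641 CPM, which did not overlap, and the values were 1.03 for miR-199a-3p, 0.92 for miR-199a-5p, 0.52 for miR-143-3p, 0.12 for miR-214-3p and -0.71 for miR-145a-5p. Of the myeloid and lymphoid arms, 3 of 4 were tested (miR-142a-5p at 0.83, miR-142a-3p at 0.75, miR-150-5p at 1.69). Their sum of 413 to 526 CPM in round spermatids lay above 90.3 to 347 CPM in spermatocytes. miR-150-5p held 42, 8, 34 and 24 counts in round spermatids and 7, 0, 7 and 2 counts in spermatocytes. It passed the filter through round spermatids alone. miR-142a-3p, with 14, 4, 19 and 8 counts in spermatocytes, passed the filter mainly through round spermatids. The higher values of miR-150-5p and miR-142a-3p are therefore no support for a difference. miR-223-3p, the defining myeloid marker, had 5, 7, 13 and 15 counts in round spermatids and 1, 0, 1 and 0 counts in spermatocytes. Red blood cell miR-451a varied by library more than by cell type, from 72.8 to 4162 CPM in round spermatids and from 393 to 2319 CPM in spermatocytes, and miR-486a-5p likewise, while miR-144-3p had at most 5 counts. The epithelial arms summed to 1512 to 2858 CPM against 1621 to 4014 CPM, with miR-200a-3p at 0.61, miR-200b-3p at -0.23 and miR-200c-3p at -0.80, and miR-141-3p had at most 24 counts. Besides miR-146a-5p, the spermatogonial list held miR-21a-5p at 0.36, miR-221-3p at 0.07 and miR-222-3p at 0.02, all with overlap. The 3 germ cell markers, miR-34b-5p, miR-34c-5p and miR-449a-5p, were counted in every library. The part of the other cell types in the higher values of round spermatids was not tested.

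In the other genotypes, no miRNA passed the test of the same cell type contrast when all 24 libraries were fitted. In a fit of all 24 libraries, where 450 miRNAs passed the filter, edgeR called 21 miRNAs (4.67%) between round spermatids and spermatocytes of Ago413-/- males, 6 higher and 15 lower. It called 0 in Ago413+/+ and 0 in Ago413+/- males, with 9 (2%) and 15 (3.33%) miRNAs at an unadjusted p under 0.05 against 126 (28%) in Ago413-/-. The median size of the log2 fold change was 0.574 in Ago413-/-, 0.230 in Ago413+/+ and 0.275 in Ago413+/-. Across the 450 miRNAs, the log2 fold changes in Ago413-/- correlated with those in Ago413+/- at r = 0.470 and with those in Ago413+/+ at r = 0.201, from separate libraries. Whether the contrast differed by genotype was tested as an interaction. The edgeR test called 0 of 450 miRNAs for Ago413-/- against the mean of the other genotypes, with 50 (11.1%) at an unadjusted p under 0.05, and DESeq2 called 1. Without Ago413-/- spermatocyte replicate 2 the 50 became 28, and without Ago413+/- spermatocyte replicate 4 they became 86, again with 0 called. Against Ago413+/+ alone, edgeR and DESeq2 called 0, with 53 (11.8%) and 67 at an unadjusted p under 0.05.

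miR-195a-3p had the smallest interaction p. In the fit of 24 libraries its log2 fold change was -2.29 ± 0.38 in Ago413-/-, -0.62 ± 0.36 in Ago413+/+ and -0.09 ± 0.36 in Ago413+/- (SE). The interaction against the mean of the last 2 was -1.93 ± 0.45 (SE, edgeR adjusted p = 0.101), and DESeq2 called it. Levels were 49.3 ± 10.3 CPM in Ago413-/- round spermatids and 242 ± 97.3 CPM in Ago413-/- spermatocytes, against 103 ± 29.3 and 158 ± 63.3 CPM in Ago413+/+ and 99.7 ± 29.9 and 106.2 ± 30.0 CPM in Ago413+/- (SD, n = 4 each). The 9 that followed it, none past the adjusted threshold, were miR-200b-5p, miR-5099, miR-320-3p, miR-25-5p, miR-92a-1-5p, miR-322-5p, miR-7223-5p, miR-471-5p and miR-10b-3p, with adjusted p from 0.311 to 0.381. miR-5099, for example, had log2 fold changes of -1.63, -0.36 and 0.02 in Ago413-/-, Ago413+/+ and Ago413+/-.

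miR-146a-5p was higher in round spermatids in Ago413-/- and in Ago413+/-, and its value in Ago413+/+ hung on 1 library. Ago413+/- levels were 2661, 1791, 1604 and 1012 CPM in round spermatids and 261, 237, 338 and 565 CPM in spermatocytes, without overlap. Ago413+/+ levels were 368, 772, 1096 and 438 CPM in round spermatids and 186, 194, 4398 and 292 CPM in spermatocytes. Spermatocyte replicate 3 of Ago413+/+ stood above every round spermatid library of that genotype, and the other 3 below all of them. The same library had the lowest miR-195a-3p of its group, 64.3 CPM against 178 to 203 CPM. With all libraries the log2 fold change in Ago413+/+ was -0.93 ± 0.72 (SE, edgeR adjusted p = 0.996). Without that library, an alternative chosen after seeing the data, it was 1.51 ± 0.52 (SE, edgeR adjusted p = 0.828), and in Ago413+/- 2.38 ± 0.48 (SE, edgeR adjusted p = 0.0173), the 1 call in that genotype. The difference of Ago413-/- from Ago413+/+ was 3.64 ± 1.04 with all libraries and 1.34 ± 0.67 without that one (SE, edgeR adjusted p = 0.206 and 0.482). miR-195a-3p without it stood at -0.94 ± 0.33 in Ago413+/+, and its interaction against the mean of the other genotypes at -1.63 ± 0.39 (SE, edgeR adjusted p = 0.148).

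**Figure D5:**
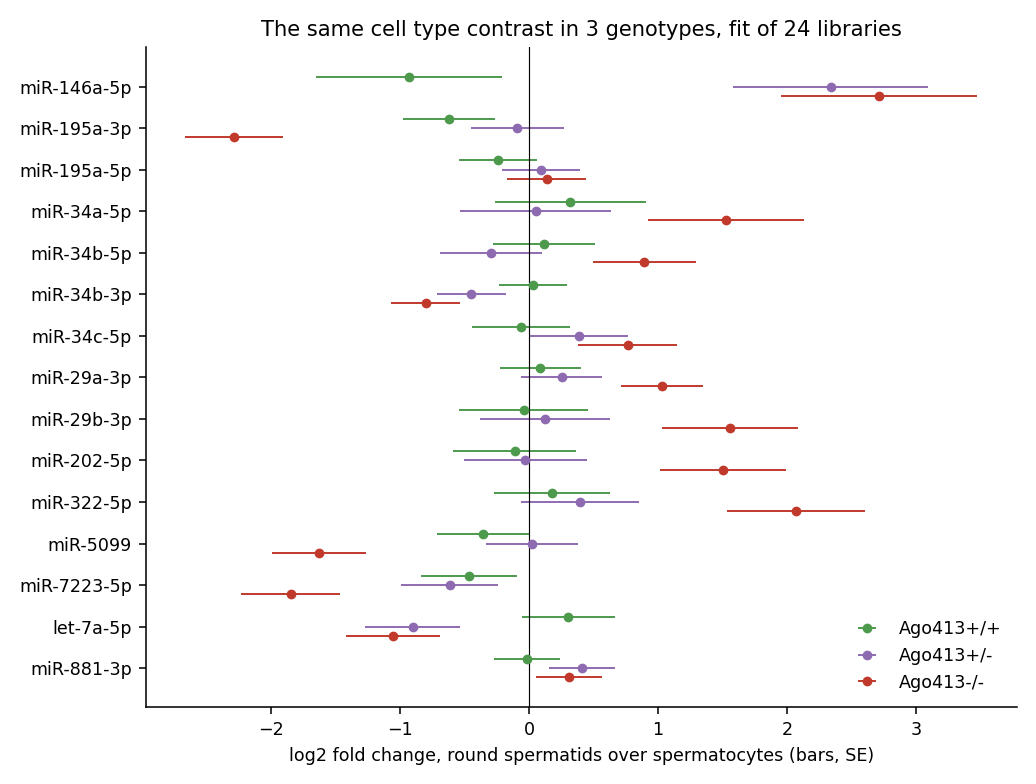
Log2 fold change of round spermatids over spermatocytes for 15 miRNAs (horizontal axis, points with SE bars) in Ago413+/+ (green), Ago413+/- (purple) and Ago413-/- (red), from the fit of 24 libraries with 4 libraries per group. miR-195a-3p stands at -2.29 in Ago413-/- and near 0 to -0.62 in the others, and miR-146a-5p at 2.71, 2.34 and, with 1 high spermatocyte library, -0.93 in Ago413+/+.

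Several arms with no overlap in Ago413-/- had log2 fold changes near 0 in the other genotypes, which were not shown to differ. The miRNAs of this paragraph were picked by their values in Ago413-/-, a choice that favours larger values there. miR-202-5p had 1.51 in Ago413-/-, -0.11 in Ago413+/+ and -0.03 in Ago413+/-, with an interaction against their mean of 1.58 ± 0.59 (SE, edgeR adjusted p = 0.381). miR-29b-3p had 1.56, -0.04 and 0.12, with an interaction of 1.52 ± 0.63 (SE, edgeR adjusted p = 0.381). miR-34b-5p had 0.89, 0.12 and -0.30, and miR-34b-3p had -0.80, 0.03 and -0.45, with interactions of 0.98 ± 0.49 and -0.59 ± 0.32 (SE, edgeR adjusted p = 0.418 and 0.422). For let-7a-5p the values were -1.05, 0.30 and -0.91, so that Ago413+/- resembled Ago413-/- in direction. The run of miR-7210 to miR-7242 had a median of -1.07 in Ago413-/-, -0.13 in Ago413+/+ and -0.54 in Ago413+/-, with 20, 12 and 18 of 20 below 0. Ago413+/- spermatocyte replicate 4, the other library that stood apart, enters the Ago413+/- values.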

How the data were processed

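Small RNA from enriched spermatocytes and round spermatids was sequenced by the study, trimmed with Trim Galore and matched to mature mouse miRNAs of miRBase with the miRDeep2 quantifier. The table the authors deposited gives raw, unnormalized counts for 1978 mature miRNAs, families not summed, and its 24 library columns were all used. Groups were taken from the labels. Counts were analysed with R 4.3.3. A miRNA was kept when 3 or more of the 8 Ago413-/- libraries held 10 or more counts (30 had exactly 3 such libraries, and 24 with exactly 2 were left out). Libraries were scaled by TMM and tested with the robust quasi-likelihood test of edgeR 4.0.16 on cell type alone. A fit of 6 groups over 24 libraries gave the other genotypes and the interactions. P-values were adjusted after Benjamini and Hochberg across each fit, and SEs were taken as the fold change on the log2 scale over the root of the F statistic. Interactions were called on the adjusted p alone. Arm ratios, log2 of the minor over the major arm count with 0.5 added to each, were tested with limma 3.58.1. DESeq2 1.42.0 was an alternative, and its missing adjusted p-values were left missing. Scripts were tested on simulated counts.

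The miRNAs and lists were chosen with earlier results of these data known, so no list has a p-value. Named are the 10 most counted miRNAs, changed miRNAs, up to 4 of the most counted members of each list, the 10 smallest interaction p-values and all cell type markers. Others are named for their families or for calls under an alternative, after their values were seen. X-linked miRNAs are those whose RefSeq copies all lie on chromosome X. No 2 Ago413-/- replicates agreed within sampling noise (chi-square over degrees of freedom at least 30.8 in 12 pairs). The limits given for absent miRNAs cover counting error only, since PCR reads without molecular identifiers are not independent molecules. SEs and SDs measure the spread between libraries.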

Additional observations from a re-analysis of the deposited data

Results flagged for a closer look

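Levels of the miRNAs named above, library totals and shares were searched for a library far from the other 3 of its group, by the gap to the nearest library over the range of the group. Of 202 groups of 4, 22 stood out, against about 10.1 that chance gives, and 14 of the 22 were spermatocyte replicate 2 of Ago413-/-. In that library, high values were 89504 CPM for miR-470-5p, 7395 CPM for miR-423-5p, 26602 CPM for miR-34b-3p, 4004 CPM for miR-320-3p, 55229 CPM for let-7c-5p, 26377 CPM for let-7f-5p and 10742 CPM for let-7d-5p. The miR-465 arms were high there too, at 20980 CPM for miR-465b-3p, 20922 CPM for miR-465c-3p, 10490 CPM for miR-465a-3p and 33746 CPM for miR-465b-5p. Low values in the same library were 25983 CPM for miR-191-5p, 110 CPM for miR-195a-5p and 1283 CPM for miR-34c-3p. This library is the shallowest, and its deviation from the other replicates rose with GC content. The part of depth and GC in these values was not tested.

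Among the Ago413-/- round spermatids, replicate 4 stood out for the red blood cell markers miR-451a at 4162 CPM, against 72.8 to 577 CPM in the other 3, and miR-486a-5p at 419 CPM. Replicate 3 was high for let-7g-5p at 61087 CPM and miR-871-3p at 29843 CPM. Replicate 2 was low for let-7a-5p at 17931 CPM and high for miR-145a-5p at 40.2 CPM. Spermatocyte replicate 3 was high for miR-200a-3p at 1163 CPM. In Ago413+/+ spermatocytes, replicate 3 gave 4398 CPM of miR-146a-5p, against 186 to 292 CPM in the other 3.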

How the results depend on the processing

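Both calls were made again with the adjusted p alone, RLE scaling, either stricter filter on low counts, a term for replicates 1 and 2 against 3 and 4, no robust estimation, and counts summed by seed. DESeq2 called 14 miRNAs (5 higher, 9 lower), no filter gave 22 of 951 (10 higher, 12 lower), and the fit of all 24 libraries 21 (6 higher, 15 lower), each with both among them. Scaling by library totals alone called 1, miR-195a-3p, and 0 higher. Leaving out 1 library gave 0 to 13 calls, 0 to 7 higher and 0 to 7 lower. It gave 0 in 6 of 8 fits, 13 without spermatocyte replicate 1 and 12 without replicate 2. The cause was not tested. The labels do not tie same-numbered libraries to the same animals, and deviations of same-numbered libraries correlated at 0.299, -0.100, -0.172 and 0.171. With the replicate number as a block, 9 miRNAs were called (6 higher, 3 lower), and 0 in either interaction. Beside the 2 calls these were miR-34a-5p, miR-29b-3p, miR-126a-3p, miR-201-5p and miR-202-5p as higher and miR-5099 and miR-7223-5p as lower.

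The interaction against the mean of both other genotypes called 1 miRNA with DESeq2, with RLE scaling and with at least 10 counts in every library, 5 without a filter, and 0 to 1 when 1 library was left out. Against Ago413+/+ it called 8 without a filter. The arm test called 0 to 1 hairpins when 1 library was left out. The 1 was miR-146a, without spermatocyte replicate 2. Its 3p arm held 0 counts in each of the 8 libraries, so its ratio moved with the 5p count alone and shows no change of arm. The difference in mean library total, 333800 counts, ran from 218877 to 403239 counts, with p at most 0.114 in the exact permutation test.

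Among 94 named miRNAs, 26 values turned in direction, all of miRNAs that were not called. Under the block, miR-451a stood at -0.68 and miR-486a-5p at -0.225, and with the term for replicates 1 and 2 against 3 and 4 miR-451a at -0.144. miR-222-3p stood at -0.0238 with DESeq2, -0.026 with RLE scaling and -0.0443 with 24 libraries. The other turns came from leaving out 1 library, where log2 fold changes ran from -0.0414 to 0.277 for miR-195a-5p, -0.171 to 0.182 for miR-34c-3p, -0.229 to 0.0353 for miR-465b-5p, -1.64 to 1.02 for miR-451a, -1.21 to 0.909 for miR-486a-5p and -0.232 to 0.419 for miR-221-3p. They ran from -0.393 to 0.5515 for miR-222-3p, -0.0168 to 0.390 for let-7f-5p, -1.16 to 0.324 for let-7c-5p, -0.52 to 0.135 for miR-200b-3p and -0.127 to 0.309 for miR-214-3p. Depth limits miRNAs under 19.3 CPM, the level of 3 counts in the shallowest library.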
